A study of Mus musculus with 4 samples.

Results

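The genes described here encode CTCF and the cohesin machinery, a set of 10 chosen by name out of 21887 protein-coding RefSeq genes. They are Ctcf, the ring genes Smc1a, Smc3 and Rad21, the paralogues Stag1 and Stag2, the loader gene Nipbl, the release gene Wapl, and Pds5a and Pds5b. A peak of open chromatin was assigned to a gene when its summit lay inside the gene span or within 50 kb of it. These windows held 15 peaks in knockout replicate 1 and 25 in knockout replicate 2. They held 37 in wild-type replicate 1 and 23 in wild-type replicate 2. Joined where they overlapped, the peaks formed 43 of the 39137 merged regions of the series.

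The data are ATAC-seq peak lists, which mark places where a transposase could insert adapters into open DNA. All cells were 10T1/2, a mouse embryonic fibroblast line. The tested cells carried a CRISPR-Cas9 knockout of Ranbp2 and came from 1 clone made with a single guide, and the comparison cells were labelled wild type for Ranbp2. Each genotype had 2 libraries, and nothing says that these came from separate cultures, so the spread between them may be technical. Ranbp2 encodes a nucleoporin of the cytoplasmic pore filaments, which has Ran-binding domains and SUMO ligase activity.

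In all, 13877 and 24292 peaks were listed for the knockout libraries, against 33721 and 18511 for the wild-type libraries. Knockout replicate 1 was the shortest list, and the part of its length in the absences described here was not tested. The files hold no read counts, so depth is unknown. The fold of a peak is the authors' enrichment at the summit over the background of the same library. Because each list was called separately, folds are given as description. Tests and calls use only the percentile of a fold within its list, where 100 is the highest fold. This percentile also depends on how many weaker peaks a list holds, so ranks among regions in all 4 lists are given too. Of 10 fibroblast markers, 3 and 4 had a peak within 1 kb of a gene end in the knockout libraries, against 8 and 6 in the wild-type libraries, and Pdgfra and Prrx1 had none. Over all protein-coding genes the shares were 27.6% and 36.3% in the knockout lists, against 42.5% and 34.6% in the wild-type lists, and the part of list length in the marker counts was not tested. Of 18 markers of other cells (pluripotent, neural, immune, endothelial or epithelial), Cd68 had such a peak in knockout replicate 2 and Tubb3 in wild-type replicate 1. The libraries are from bulk cells, so a site open in fewer cells cannot be told apart from a site less open in each cell.

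Cohesin is a ring of SMC1A, SMC3 and RAD21 that holds DNA and extrudes it into loops. A STAG protein binds RAD21, NIPBL drives loading and extrusion, and WAPL with a PDS5 protein opens the ring and releases it. CTCF, a zinc-finger protein, binds a directional DNA motif and stops extrusion there, which places the borders of many chromatin domains. The genes are expressed in nearly all dividing cells, and the ring also holds sister chromatids together until anaphase.

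The promoter table of RefSeq (GRCm38.p6, the same primary coordinates as mm10) had an annotated start for 7 of the 10 genes. Those of Rad21, Stag2 and Nipbl were not used here. The sequences below are the 250 bases before the start of 4 of these genes, each picked for the trait named next. Ctcf has the weakest start among genes with a start peak in all 4 lists, and Stag1 has its start far inside its RefSeq span. Wapl has, among starts with a peak in all 4 lists, the only one whose knockout and wild-type percentiles do not overlap, and the start of Pds5b holds the only match to the CTCF core motif. Each is written 5′ to 3′ on the gene's strand, with motif matches in capitals.
Ctcf, chr8:105636288-105636537, plus strand: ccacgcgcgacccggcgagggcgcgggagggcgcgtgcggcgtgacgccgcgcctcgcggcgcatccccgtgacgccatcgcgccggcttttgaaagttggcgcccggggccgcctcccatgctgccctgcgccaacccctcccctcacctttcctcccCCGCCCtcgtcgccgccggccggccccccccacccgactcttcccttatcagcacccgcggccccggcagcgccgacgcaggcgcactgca
Stag1, chr9:100643198-100643447, plus strand: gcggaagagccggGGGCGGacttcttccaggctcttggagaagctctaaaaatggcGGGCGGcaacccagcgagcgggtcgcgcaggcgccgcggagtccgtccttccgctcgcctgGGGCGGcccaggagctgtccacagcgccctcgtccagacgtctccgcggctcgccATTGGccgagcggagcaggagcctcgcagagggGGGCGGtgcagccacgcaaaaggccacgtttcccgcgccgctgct
Wapl, chr14:34673678-34673927, plus strand: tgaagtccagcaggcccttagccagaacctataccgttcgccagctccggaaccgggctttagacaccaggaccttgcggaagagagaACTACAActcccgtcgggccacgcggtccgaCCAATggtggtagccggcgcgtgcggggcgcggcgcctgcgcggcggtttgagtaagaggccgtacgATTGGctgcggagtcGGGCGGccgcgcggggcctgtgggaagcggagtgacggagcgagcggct
Pds5b, chr5:150673577-150673826, plus strand: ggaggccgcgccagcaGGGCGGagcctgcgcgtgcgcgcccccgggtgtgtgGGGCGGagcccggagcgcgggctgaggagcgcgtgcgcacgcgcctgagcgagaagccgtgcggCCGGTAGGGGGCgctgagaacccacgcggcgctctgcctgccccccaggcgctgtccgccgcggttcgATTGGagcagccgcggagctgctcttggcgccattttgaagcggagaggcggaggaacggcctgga

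Motifs of CTCF, NRF1, YY1, ETS factors, SP and KLF factors, CREB, NF-Y and ZNF143 were searched for on both strands. The GC box bound by SP and KLF factors, written GGGCGG, was found before all 7 starts, against 32.7% of the 32851 promoters of the table. A CCAAT box was found in 4 of the 7, Smc1a, Stag1, Wapl and Pds5b, against 33.8% of promoters. A match to the CTCF core, searched with 4 positions free to be any base, was CCGGTAGGGGGC, which began 134 bases before the start of Pds5b. The core with its free positions was found in 2.93% of promoters. The letters searched for ZNF143, which are ACTACAA, began 162 bases before the start of Wapl and were found in 2.81%. The motif of NRF1 (0.782% of promoters) and that of YY1 (0.207%) were not found in these windows. Nor was the shorter AAGATGG inside the YY1 motif, which 4.49% of promoters held. The ETS letters were CCGGAAG, found in 6.91% of promoters and before none of these starts. The palindrome bound by CREB was TGACGTCA, found in 1.55% and likewise in none of the 7. The 7 sequences were rich in G and C, with a median of 71.2% and 32 CpG dinucleotides, against 52.4% and 6 over all promoters. The shares and medians of promoters here are over the whole table. They were not counted for the 17492 protein-coding genes with a start in it. The share of GC boxes and the content of G and C were thus both above those of all promoters, and the part of composition in the share was not tested. These matches are letters in a window and not binding sites.

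Of the 10 genes, 5 had a peak at a gene end or an annotated start in all 4 lists. The share of all genes with either was not counted. A gene-end peak, with its summit within 1 kb of either end of the RefSeq span, was present for 3 and 6 genes in the knockout libraries, against 6 and 6 in the wild-type libraries. Ctcf, Smc1a and Smc3 had one in all 4 lists, which is 3 of 10 beside 26.4% of all protein-coding genes. Stag2, Pds5a and Pds5b had one in every list except knockout replicate 1, a pattern seen in 6.06% of all genes. Rad21, Stag1, Nipbl and Wapl had none in any list, as did 56.6% of all genes. The shares of all genes per library, given above for the markers, were 27.6% and 36.3% in knockout, against 42.5% and 34.6% in wild type. On whole lists, none of the 10 genes was open at an end in 1 genotype alone (both of its libraries). Over all genes the shares of this pattern were 0.0503% for knockout and 1.69% for wild type. The count of 3 rested on knockout replicate 1, and without that library it was 6. With every list at the length of the shortest it was 2, as the Ctcf peak fell outside the wild-type lists. Ctcf was then open at an end in both knockout lists and in neither wild-type list. Its start peak ranked 13913.5 in wild-type replicate 2, just past the limit of 13877, and 22298 in wild-type replicate 1, far past it. The share of all genes with this pattern at that length was not counted.

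Distance to the span ends understated how many starts were open. The annotated starts of Stag1 and Wapl lie 45.7 kb and 1.55 kb inside their spans, and both had a peak in all 4 lists. Of the 7 genes with an annotated start, 5 had a peak within 1 kb of it in all 4 lists (Ctcf, Smc1a, Smc3, Stag1 and Wapl), beside 28.8% of 17492 genes with a start in the table. The sites nearest the 1 kb limit were a second Smc1a peak 0.548 kb from an end (wild-type replicate 1, fold 7.79), and, outside it, a Stag2 peak at 1.20 kb (wild-type replicate 2, fold 6.24). The sites nearest the 50 kb limit were a Smc3 peak at 47.4 kb (wild-type replicate 1, fold 5.77), and, outside it, a Stag1 peak at 51.5 kb (knockout replicate 1, fold 7.60). The plot of leading sites by library gives 1 site of each gene. Percentiles have a ceiling at 100, so the spread of sites near the top cannot be set against that of lower ones.

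**Figure D1:**
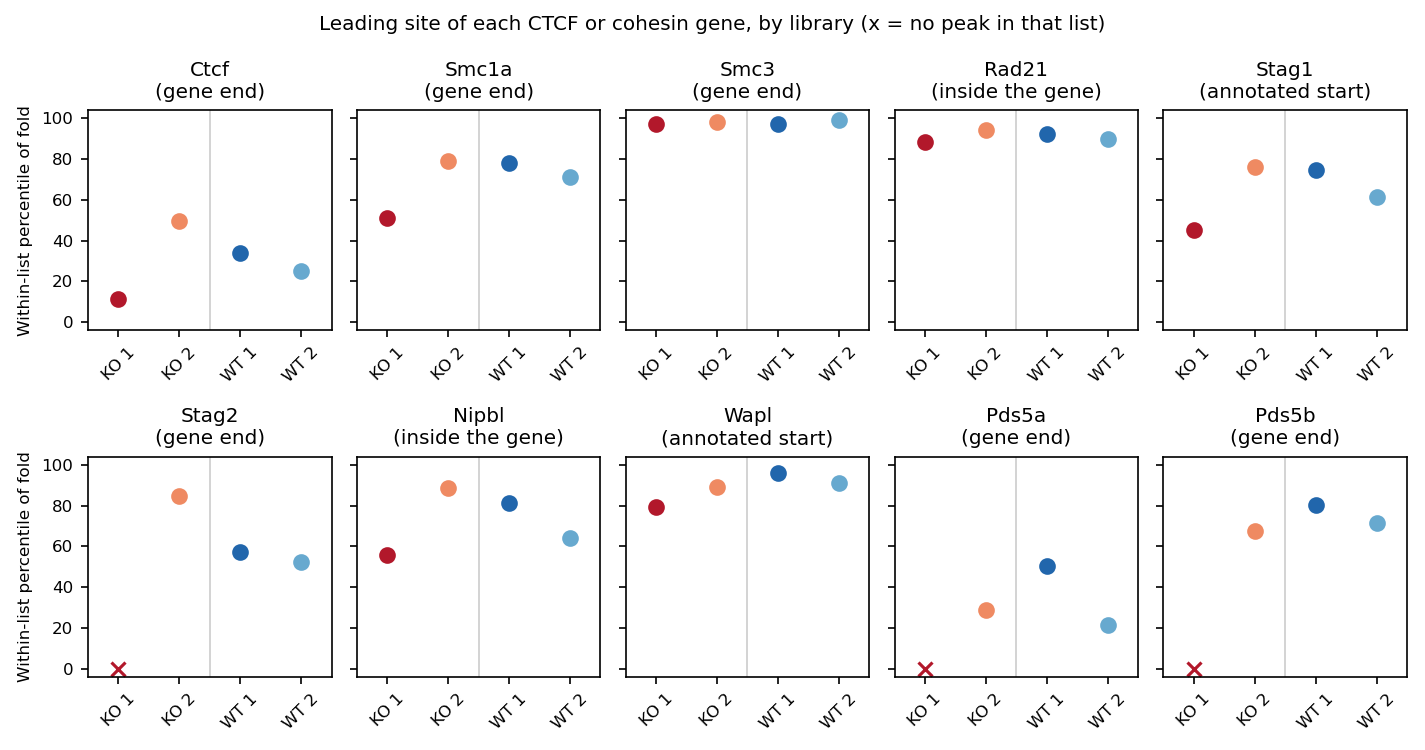
Within-list percentile of fold (vertical axis, 0 to 100) at 1 site of each gene in 4 libraries, knockout (KO) left of wild type (WT). Each point is a library and a cross marks a list without a peak. The gene-end peak is shown where there is one, otherwise the annotated start or, for Rad21 and Nipbl, the strongest region inside the gene. Smc3 stays between 97.1 and 99.2, and the 3 crosses all belong to knockout replicate 1.

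Ctcf (gene 13018) spans chr8:105636474-105682922, and its start was open but weak. The start peak had folds of 5.08 and 6.77 in the knockout libraries, against 6.30 and 6.86 in the wild-type libraries. These are percentiles 11.3 and 49.8 of the knockout lists, and 33.9 and 24.8 of the wild-type lists. The wild-type values lay between the knockout values, so the genotypes overlapped (30.6 ± 27.2 against 29.4 ± 6.39, SD, n = 2 each, exact permutation p = 1.0). Its summits were spread over 172 bp, from 302 to 130 bases before the annotated start. A second peak, from 273 to 317 bases after the start, had folds of 5.86 in knockout replicate 2, against 5.52 and 6.83 in the wild-type libraries, with no peak in knockout replicate 1. Both peaks of this gene sat below the middle of every list that held them.

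Smc3 (gene 13006, chr19:53600396-53645831), an ATPase arm of the ring, had the strongest start of the set. Its fold was 15.7 and 19.3 in the knockout libraries, and 22.1 and 25.3 in the wild-type libraries. Within their lists these ranked 406 of 13877 in knockout replicate 1, 882 of 33721 in wild-type replicate 1 and 153 of 18511 in wild-type replicate 2. The percentiles were 97.1 and 98.2 in knockout, against 97.4 and 99.2 in wild type, and they overlapped (exact permutation p = 0.667). The 4 summits fell within 4 bp of each other, 375 to 379 bases before the annotated start, so it lay further upstream than the other starts. Folds of both knockout libraries were below those of both wild-type libraries while percentiles overlapped. The medians of all folds were also lower in the knockout lists, at 7.28 and 6.78 against 7.72 and 8.92.

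Smc1a (gene 24061, chrX:152016428-152061973), the partner ATPase arm, had a start of middle strength that it shares with Ribc1, whose gene end lies within 1 kb. The fold was 7.36 and 10.6 in the knockout libraries, and 12.3 and 11.7 in the wild-type libraries. Their percentiles were 51.1 and 79.1 in knockout, against 77.9 and 71.1 in wild type. Knockout replicate 2 was the highest of the 4 and knockout replicate 1 the lowest, so the groups overlapped (65.1 ± 19.8 against 74.5 ± 4.84, SD, n = 2 each, exact permutation p = 1.0). A weaker second peak, 455 to 548 bases after the start, was present in both knockout libraries (folds 5.41 and 5.44) and in wild-type replicate 1 (7.79), and was not listed in wild-type replicate 2.

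Rad21 (gene 19357, chr15:51962604-51993538), the subunit that closes the ring and is cut by separase, had 1 region in its whole window. This region, chr15:51991656-51992012, lies 1.67 kb inside the high-coordinate end and within 1 kb of an end of the predicted gene Gm52217. No annotated start of Rad21 was used here, so whether this region is at its start was not tested. The fold was 12.03 and 15.8 in the knockout libraries, and 17.8 and 16.7 in the wild-type libraries. The percentiles of 88.5 and 94.3 in knockout, against 92.2 and 90.0 in wild type, overlapped (exact permutation p = 1.0). This was among the strong sites of the set, and the next summit outside the window was 85.2 kb from the gene.

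The 2 STAG genes differed in how evenly their leading peaks appeared, at the annotated start of Stag1 and at a gene end of Stag2. Stag1 (gene 20842) spans chr9:100597709-100958544 and had 2 regions in its window, both at its annotated start. The stronger, chr9:100643127-100643652, had folds of 6.99 and 10.0 in knockout, against 11.6 and 10.2 in wild type. Its percentiles of 45.2 and 76.2 in knockout, against 74.9 and 61.6 in wild type, overlapped (exact permutation p = 1.0). It covered the whole 250-base window printed above in all 4 lists. The weaker region, chr9:100642518-100642634, was present in both wild-type libraries only, at percentiles 3.89 and 3.74, near the bottom of each list.

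Stag2 (gene 20843, chrX:42149297-42277186) had no peak at all in knockout replicate 1. Its gene-end peak, just outside the low-coordinate end, had a fold of 11.98 (percentile 84.7) in knockout replicate 2, against 8.53 and 9.18 (57.1 and 52.5) in the wild-type libraries. A second site 2.90 kb inside the gene, chrX:42152116-42152320, had percentiles of 72.1 in knockout replicate 2, against 80.3 and 69.8 in wild type. The gene end was thus highest in 1 knockout library and not listed in the other. Among 1510 genes whose gene-end peak ranked within 5 points of Stag2 in knockout replicate 2, 55 (3.64%) had none in knockout replicate 1. On chromosome X these were 4 of 40. For Pds5a and Pds5b the same shares were 79.9% and 25.3%, for peaks at percentiles 28.5 and 67.6 of knockout replicate 2. These shares were added after seeing the data, only for the genes whose gene-end peak was missing from knockout replicate 1 alone.

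Nipbl (gene 71175, chr15:8289824-8465315), the loader, had no gene-end peak, and its open sites formed a cluster inside the RefSeq span. No annotated start of Nipbl was used here, so whether any of these sites is at its start was not tested. The region chr15:8444577-8444762, 20.6 kb from the high-coordinate end, was present in all 4 lists. Its fold was 7.71 and 13.2 in the knockout libraries, and 13.3 and 10.6 in the wild-type libraries. The percentiles of 55.9 and 88.8 in knockout, against 81.3 and 64.0 in wild type, overlapped (exact permutation p = 1.0). Further along, chr15:8445367-8445542 was present in both wild-type libraries (folds 8.65 and 8.36, percentiles 58.0 and 44.1) and in neither knockout library. It lies near an end of the predicted gene LOC102634078, as does another region, chr15:8446548-8446831, found in knockout replicate 2 (fold 4.64) and in both wild-type libraries (7.64 and 5.67).

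Wapl (gene 218914, chr14:34672379-34747983), which releases cohesin from DNA, had, among the starts found in all 4 lists, the only one whose genotypes did not overlap. The region chr14:34673692-34673984 covers its annotated start, with summits 131 bases before it in both knockout libraries and 78 and 125 bases before it in the wild-type libraries. The fold was 10.2 and 13.3 in the knockout libraries, and 20.6 and 17.2 in the wild-type libraries. The percentiles were 79.2 and 88.9 in knockout, against 95.9 and 91.2 in wild type (84.1 ± 6.87 against 93.6 ± 3.32, SD, n = 2 each). Both knockout values were below both wild-type values, a difference of -9.52 points, with an exact permutation p = 0.33, the smallest that 2 libraries against 2 can give. It was -4.66 points without knockout replicate 1 and -14.4 without knockout replicate 2. Of all regions in all 4 lists, 24.3% were lower in knockout in the same way and 8.03% higher, so such a pattern was common.

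The PDS5 genes, which help both to keep and to release the ring, each had an end peak in 3 lists. Pds5a (gene 71521, chr5:65605719-65698236, minus strand) had folds of 5.40 in knockout replicate 2, and 7.75 and 6.60 in the wild-type libraries, all at or near its annotated start. Its stronger site lay 59.1 kb downstream of that start, at chr5:65639045-65639226. There the percentiles of 85.8 and 82.4 in knockout, against 88.7 and 82.6 in wild type, overlapped (exact permutation p = 0.667), and the 4 summits fell within 14 bp. Pds5b (gene 100710, chr5:150673713-150810669) had folds of 8.62 in knockout replicate 2, and 13.0 and 11.8 in the wild-type libraries at its start, the site with the CTCF letters. At percentiles 67.6, against 80.1 and 71.5, this peak was lower in the knockout library that held it.

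**Figure D2:**
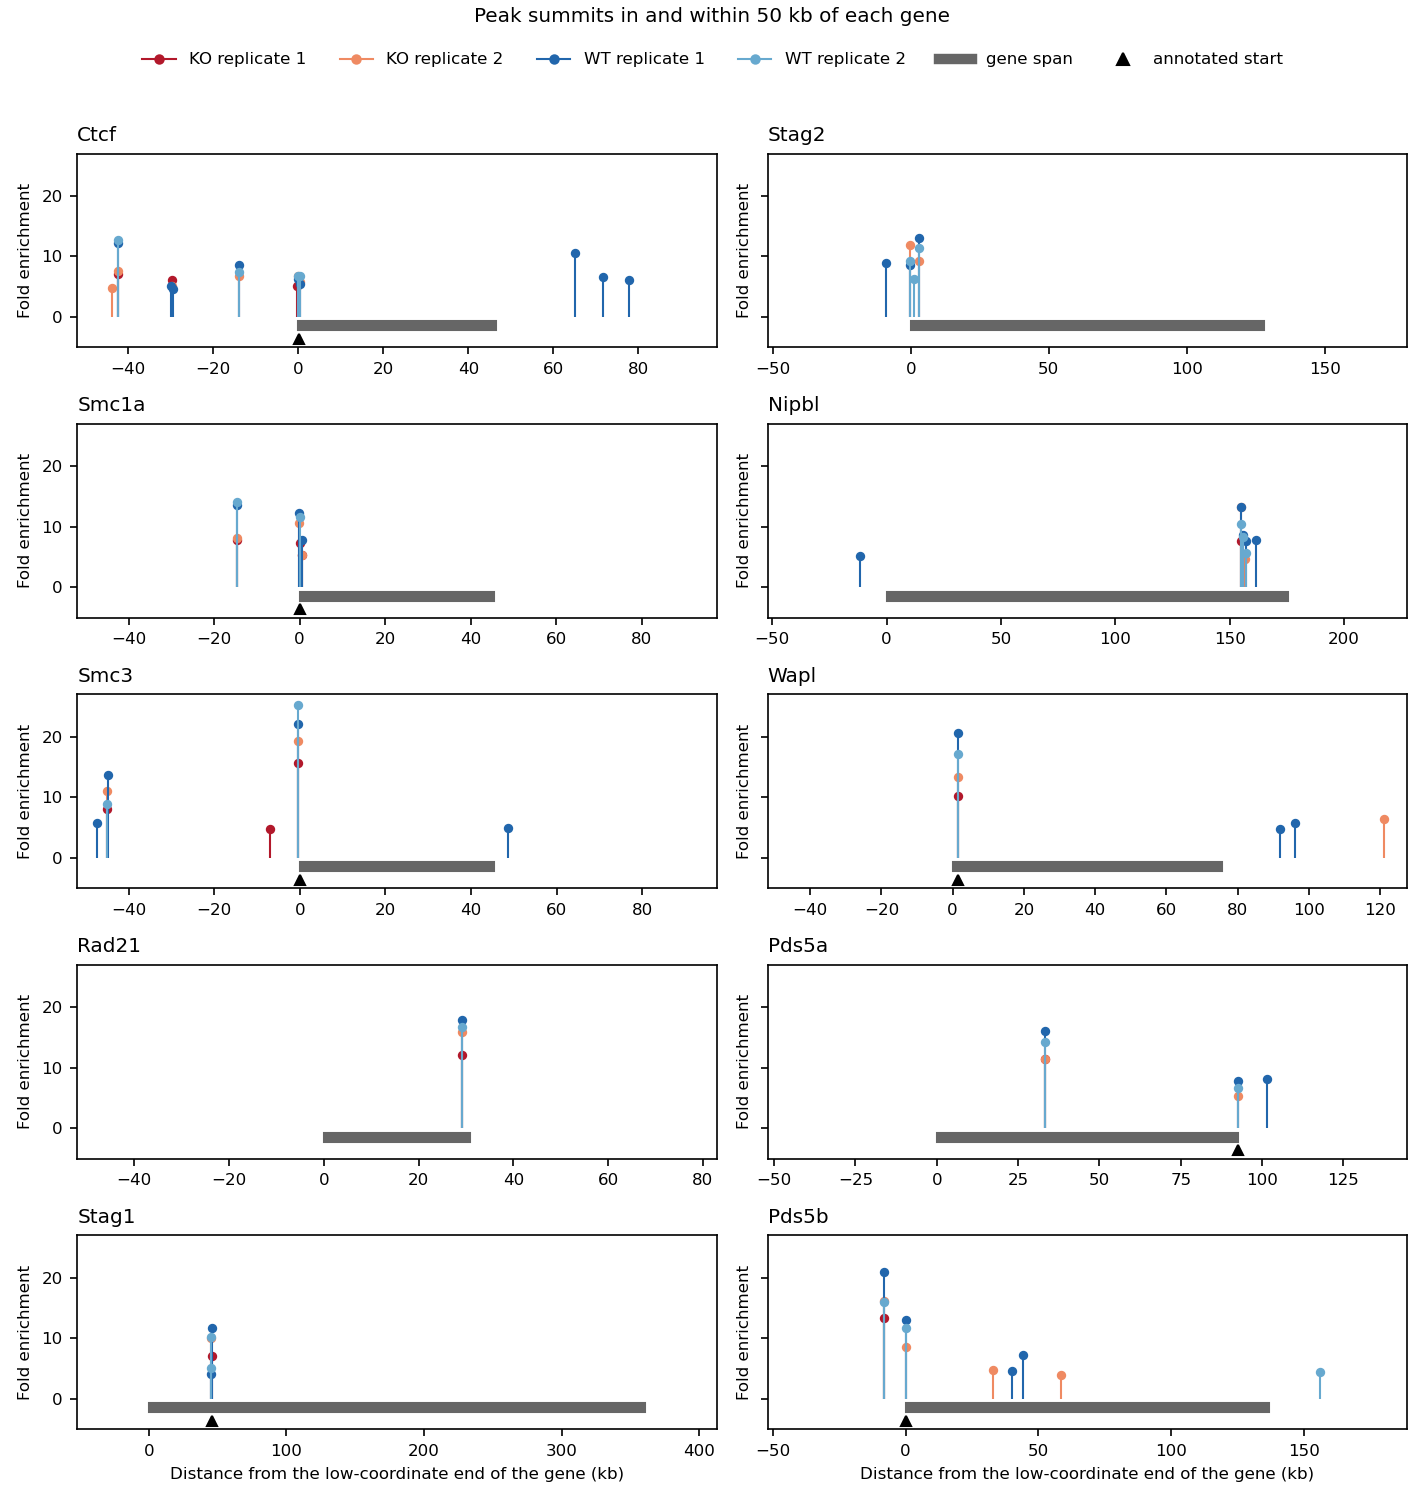
Fold enrichment at each peak summit (vertical axis) against distance from the low-coordinate end of each gene (kb), for the 10 genes with their 50 kb flanks. Colours mark the 4 libraries, the grey bar is the gene span and the triangle the annotated start. Smc3 reaches a fold of 25.3 in wild-type replicate 2, and Rad21 shows a single site.

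Regions of the windows were shared between libraries at about the rate of the whole series. Of the 43 regions, 12 (27.9%) were in all 4 lists, beside 28.0% of all merged regions. These were 5 annotated starts and 7 other sites, among them those of Rad21 and Nipbl, for which no annotated start was used. Another 20 (46.5%) were in a single list, beside 40.9%, and 13 of them belonged to wild-type replicate 1, the longest list. Regions of wild type alone (both libraries) were the 2 named above for Stag1 and Nipbl (4.65%, beside 6.52% of all regions), and there were 0 of the opposite kind, beside 0.953%. Both counts depended on single libraries. Wild-type regions numbered 4 without wild-type replicate 1, 15 without wild-type replicate 2 and 9 without knockout replicate 2, and knockout regions numbered 4 without knockout replicate 1, 1 without knockout replicate 2 and 2 without wild-type replicate 1. With every list at 13877 peaks, knockout regions numbered 1 (the Ctcf start) and wild-type regions 0.

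By place, 8 regions lay at gene ends of the set, 3 at annotated starts inside a span and 12 elsewhere inside the genes. Outside the genes, 7 lay at gene ends of other genes and 13 away from any, and of these 13 only 1 was in all 4 lists. That region, chr19:53555244-53555607, lies 44.9 kb from Smc3 and had percentiles of 60.4 and 81.3 in knockout, against 82.7 and 50.5 in wild type. The wild-type values lay on either side of both knockout values, so the groups overlapped (exact permutation p = 1.0).

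The widest differences in the windows belonged to neighbouring genes. At chr8:105593852-105594089, a gene end of Ripor1 42.5 kb from Ctcf, the percentiles were 47.9 and 58.9 in knockout, against 77.7 and 76.0 in wild type. At chrX:152001732-152001940, a gene end of Hsd17b10, a mitochondrial dehydrogenase, 14.6 kb from Smc1a, they were 57.3 and 63.7 in knockout, against 82.4 and 82.1 in wild type. Both knockout libraries were lower at both sites, by 23.4 and 21.7 points (exact permutation p = 0.33 each, the smallest possible). At a gene end of N4bp2l2 near Pds5b, chr5:150665500-150665932, the percentiles of 93.0 and 94.8 in knockout, against 96.2 and 88.0 in wild type, overlapped (exact permutation p = 1.0). By mean percentile over the lists that held it, the strongest site away from the ends of Ctcf was chr8:105701478-105701620. This site, at gene ends of Acd and Pard6a and 18.6 kb from Ctcf, was listed in wild-type replicate 1 only (fold 10.6, percentile 70.1).

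Set against the whole series, the 12 shared sites had genotypes that did not overlap about as often as other regions did. Both knockout percentiles lay below both wild-type percentiles at 3 of 12 sites (25%), beside 24.3% of 10977 regions in all 4 lists, and above them at 0 of 12, beside 8.03%. Among the 3 gene ends in all 4 lists, 0 were lower and 0 higher, beside 25.8% and 3.33% of 5789 genes. The median of all such regions was -4.71 points in knockout minus wild type, and the 12 sites had a median of -1.09.

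Ranked only among the 10977 regions that all lists share, a scale chosen after seeing the data, the median shift of all regions was -0.041 points. On this scale 3 of the 12 sites were lower in knockout (beside 22.0% of regions) and 3 higher (beside 21.8%). The same 3 sites were lower. Wapl had percentiles of 74.1 and 75.8 in knockout, against 87.7 and 85.4 in wild type. The Ripor1 site near Ctcf had 38.2 and 23.6, against 39.1 and 60.9, a gap of under 1 point between its nearest libraries. The Hsd17b10 site had 48.2 and 29.4, against 49.7 and 70.3.

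Rad21 was among the sites that were higher on this scale and overlapped on the scale of whole lists. It had percentiles of 85.7 and 87.5 in knockout, against 76.6 and 83.3 in wild type. The N4bp2l2 site (91.2 and 88.6, against 88.6 and 79.9) and the region upstream of Smc3 (51.7 and 59.6, against 50.4 and 29.5) did likewise. At the N4bp2l2 site the nearest knockout and wild-type libraries were apart by less than the last digit given. The exact permutation p was 0.33 for each of these 6 sites, the smallest possible. The starts of Ctcf, Smc1a, Smc3 and Stag1 and the sites inside the spans of Nipbl and Pds5a overlapped between genotypes on both scales. The plot of shifts shows where the 12 sites fall in the spread of all shared regions, of which 90% lay between -25.1 and 26.4 points.

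**Figure D3:**
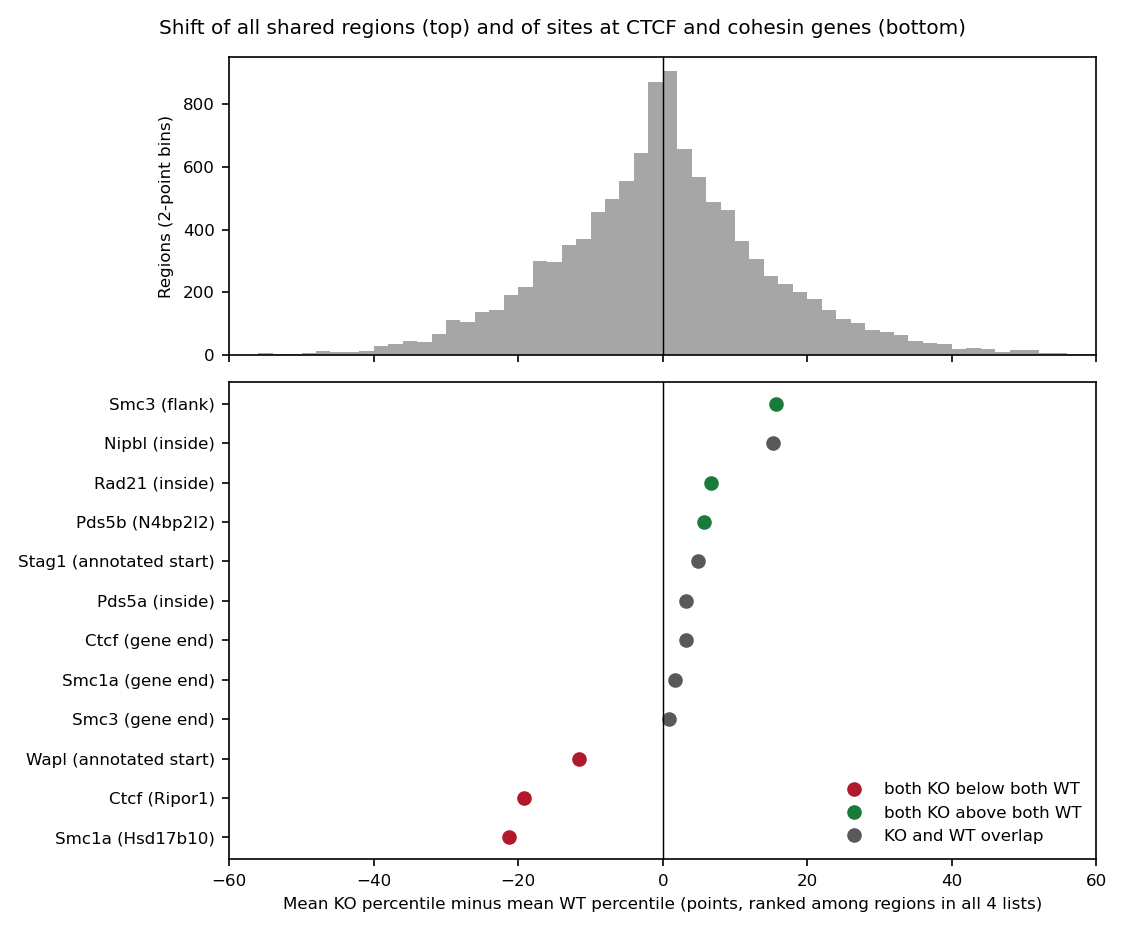
Mean knockout (KO) percentile minus mean wild-type (WT) percentile, in points, ranked among regions in all 4 lists. The upper panel counts, in bins of 2 points, those of the 10977 regions that lie between -60 and 60. Shifts ran from -81.2 to 74.8, so a few regions fall outside it. The lower panel gives the 12 sites in the windows of the CTCF and cohesin genes, coloured by whether the libraries of the genotypes overlap. All 12 fall between -21.2 and 15.7 points, inside the central bulk of the upper panel.

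The medians of the chromosomes are given beside the shifts of single sites. Each median is over many regions, from 221 on chromosome X to 635 on chromosome 8, so its size cannot be compared with that of 1 site. On the same scale, the median shift of all shared regions was -1.80 points on chromosome 15, where the Rad21 and Nipbl sites had 6.62 and 15.2. It was 1.74 on chromosome X, where the Smc1a start had 1.65, and 0.419 on chromosome 8, where the Ctcf start had 3.19. It was -0.761 on chromosome 19, where the Smc3 start had 0.90, and -0.519 on chromosome 9, where the Stag1 start had 4.82. On chromosome 14 it was 0.426 and the Wapl start had -11.6, and on chromosome 5 it was -0.44 and the inner Pds5a site had 3.28. The shifts of the Ctcf and Smc1a starts had the sign of their chromosome's median, and those of the other 6 sites in this paragraph had the opposite sign. The part of the chromosome in these shifts was not tested.

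The authors deposited 2 lists of differential regions, as positions with no fold or p. None of the 10 genes had such a region within 50 kb, beside 1.94% of all protein-coding genes for the knockout-enriched list and 2.38% for the wild-type-enriched list. The count was also 0 of 10 within 100 kb. The nearest knockout-enriched regions of the authors' deposited table were 158 kb from Wapl and 165 kb from Ctcf. The nearest wild-type-enriched ones were 298 kb from Smc3 and 606 kb from Nipbl.

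Other genes of chromosome structure were grouped in 5 lists of 37 genes. They had a gene-end peak for 20 and 24 genes in the knockout libraries, and for 27 and 24 in the wild-type libraries, with 19 (51.4%) in all 4, beside 26.4% of all genes. All 5 genes of germline cohesin and the CTCF paralogue (Rec8, Smc1b, Stag3, Rad21l and Ctcfl), known for their use in meiotic cells, had none in any list. Among the 9 genes of loading, acetylation, protection and release 5 were in all 4 lists, as were 5 of 8 condensin genes, 3 of 6 SMC5/6 genes and 6 of 9 loop and boundary partners. None of the 37 was open at an end in 1 genotype alone.

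Of the 19, 7 (36.8%) had both knockout percentiles below both wild-type percentiles, beside 25.8% of genes, and 2 (10.5%) had both above, beside 3.33%. Their median was -10.4 points, beside -5.15 for all 5789 genes. By list, 2 of 5 genes of loading, acetylation, protection and release were lower. So were 2 of 5 condensin genes, 1 of 3 SMC5/6 genes and 2 of 6 partners, and the 2 higher ones were partners. Top2a, the topoisomerase of dividing cells, had the widest shift on the scale of whole lists, at 32.2 and 34.2 in knockout, against 78.8 and 51.2 in wild type. Yy1, a zinc-finger factor found at promoter loops, had the highest shift upward, at 96.0 and 96.5, against 92.0 and 89.6.

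Named after their values were seen, Zfp143, the mouse gene of ZNF143, was the other gene that was higher, at 97.3 and 97.8 in knockout, against 94.5 and 94.9 in wild type. Mau2, the partner of NIPBL in loading, was lower, at 42.6 and 65.2, against 88.5 and 77.0. Esco2, which acetylates SMC3 in S phase, was lower by 1.62 points, at 97.2 and 97.6, against 99.3 and 98.7. The other lower genes were Ncapg and Ncapg2 of condensin, Nsmce1 of SMC5/6 and Chd8, a remodeller that binds CTCF. The direction of all 9 held when ranked among regions in all 4 lists. The order did not, as Mau2 had the widest shift there, at -32.0 points, and Top2a had -21.1. Knockout-enriched regions of the authors' deposited table lay within 50 kb of 0 of the 37 genes, beside 1.94% of all genes. Wild-type-enriched ones lay within 50 kb of 3 of the 37, beside 2.38%. These were Cdca5 (38.7 and 49.7 kb), which encodes sororin, Smc1b (22.2 kb) and Nsmce2 (46.9 kb).

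**Figure D4:**
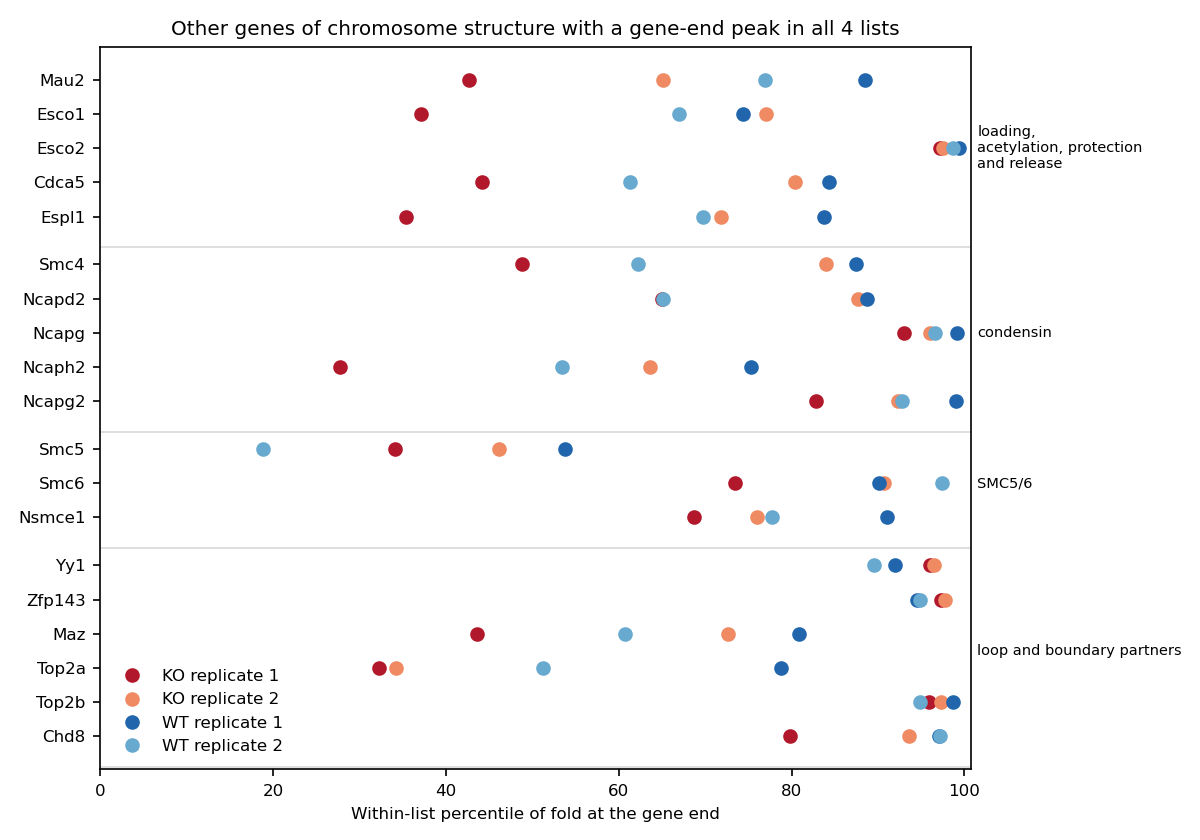
Within-list percentile of fold at the gene end (horizontal axis, 0 to 100) for the 19 other genes of chromosome structure that had a gene-end peak in all 4 lists, grouped by list. Each point is 1 library, with knockout (KO) in reds and wild type (WT) in blues. Yy1 and Zfp143 have both knockout points right of both wild-type points, and Top2a has both far left of them.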

How the data were processed

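ATAC-seq was done in 4 libraries of 10T1/2 cells, 2 of each genotype, by an Omni-ATAC procedure with paired-end sequencing, per the labels' protocols. Per the submitters' processing notes, the build was mm10 and the tools named, with no role, were DESeq2, DiffBind 2.2.12, MACS2, Bowtie2, cutadapt and deepTools. The authors deposited 1 peak list per library, called separately as the peak names show, with a score, a fold (ratio over the library's own background), and −log10 p and −log10 q at the summit. The lowest −log10 q was just above 3 in each list. The score and the −log10 p were not used here. The authors deposited the differential regions as positions only, with settings not given in the sources used here.

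Gene spans and starts came from RefSeq (GRCm38.p6). Peaks were ranked within a list by fold, with ties averaged. Peaks overlapping by at least 1 bp were merged, and a region took its highest fold per library. Gene ends were taken within 1 kb and flanks within 50 kb. Called here means that both knockout values lie on 1 side of both wild-type values. Percentiles were compared by two-sided exact permutation tests over the 4 libraries, which cannot give less than 0.33, with no test over genes. Python 3.11.15, pandas 2.3.3, NumPy 2.4.6 and SciPy 1.17.1 were used, and the code was tested on simulated data. Alternatives were list length, a −log10 q of at least 5, other windows, overlaps and rankings, and leaving out each library. The 10 genes and the other lists were chosen with earlier results of these data known. Named were the 10 genes, each gene's strongest site away from its ends, sites found in 1 genotype only, and sites in all 4 lists. Of the other lists, genes near a differential region and those with the widest shift in each direction were named.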

Additional observations from a re-analysis of the deposited data

How the results depend on the processing

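The number of genes with a gene-end peak in all 4 lists was 3. It was 5 with a window of 2 kb and 5 with annotated starts counted, an alternative added after seeing the data. It was 2 at equal list length and ran from 3 to 6 with 1 library left out. Of these gene ends, 0 had genotypes that did not overlap. The count was 1 with a window of 2 kb (Wapl then being included), 1 when ranked by −log10 q and 0 to 4 with 1 library left out, being 4 without knockout replicate 1, 3 without knockout replicate 2 and 1 without wild-type replicate 1, settings in which 1 library stands for a genotype. The replicate block gave 1 of 3, Smc3, as same-numbered libraries differed in 1 direction. The titles number the libraries but do not say that numbers pair them, and deviations of same-numbered libraries had a correlation of -0.151 on whole lists and 0.0081 on shared regions. Crossed pairing, also added after seeing the data, gave 0.

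Regions of the windows in all 4 lists numbered 12, but 11 at equal list length, 10 with flanks of 25 kb and 12 to 19 with 1 library left out. Those in both wild-type libraries only were 2, but 0 at equal list length and 2 to 15 with 1 library left out. Those in both knockout libraries only were 0, but 1 at equal list length and 0 to 4 with 1 library left out. The count of differential regions was 0 with flanks of 25 and 100 kb. The Wapl start was lower in knockout under all 9 alternatives, from -14.4 to -4.66 points, as were the Ripor1 site (-28.9 to -18.0) and the Hsd17b10 site (-27.6 to -18.5). Leaving out a library and the replicate block could not change the sign at these sites, where both knockout values lay below both wild-type values. The settings that could change it were equal list length, the −log10 q limit and the other rankings. For Wapl these gave -9.31 at equal list length, -10.1 with the −log10 q limit and -11.6 among shared regions. The other 9 sites took both signs. Where these counts moved, the cause was not tested. Depth is unknown, and a peak absent from the shortest list may be one below its threshold.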
